A study of Mus musculus with 24 samples.

Results

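Open-chromatin regions that lay inside gene bodies and were found in every library of a macrophage ATAC-seq study were examined here. ATAC-seq uses the Tn5 transposase to insert sequencing adapters into accessible DNA, so that a peak marks a stretch of open chromatin. Peaks of all 24 libraries were merged where they shared at least 1 bp, which gave 102580 regions, of which 22770 held a peak in all 24 libraries. Of these, 7805 had their midpoint inside the body of a RefSeq protein-coding gene and more than 1 kb from the start or end of any such gene. They are called always-open gene-body regions below. They were chosen by the peak calls, as detected in all 24 libraries, and by position, so neither is a finding. A region left out for want of a peak in 1 library was only below the calling threshold there.

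The cells were bone-marrow-derived macrophages, grown in culture, of male C57Bl/6 mice. Diabetic mice had received streptozotocin (STZ), a toxin that destroys the insulin-producing beta cells, and wild-type mice without diabetes were the controls. Cells of both phenotypes were either left unstimulated or given 100 ng/mL lipopolysaccharide (LPS), a bacterial cell-wall component, together with 10 ng/mL interferon gamma (IFNγ). The 4 groups of 6 libraries were control unstimulated, control stimulated, diabetic unstimulated and diabetic stimulated. The study divided each of its 6 diabetic and 6 control samples between both states, but the labels do not tie a replicate number to a mouse. The age of the mice is not given in the sources used here, and the time of stimulation is uncertain, because the treatment protocol describes another stimulus.

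Introns and internal exons of long genes hold many of the enhancers of a cell type, to which transcription factors bind to raise the activity of the host gene or of a neighbour. In macrophages the ETS factor PU.1, with C/EBP, AP-1 and RUNX factors, is known for marking many of these elements, and LPS and IFNγ bring NF-kB, IRF and STAT factors to them. Other open sites inside genes are alternative promoters, from which shorter transcripts of the host gene start. The gene that a region regulates need not be the gene it lies in, and a host gene is named here only as a position.

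RefSeq places annotated transcript starts inside many gene bodies. Of the 7805 regions, 1092 (14%) overlapped a start window, the 300 bases from 250 before to 50 after an annotated start, and for 993 of these the start belonged to the host gene itself. The usual summit lay within a start window of the host gene in 660 regions. The windows of 6 of these 660 are shown because they carry the ends of the range: the 2 largest rises after stimulation, the 2 largest falls, and the 2 highest ranks over all libraries. Letters are from RefSeq (GRCm38.p6, the mm10 build), 5′ to 3′ on the strand of the gene, with the start after base 250. Capitals mark matches, on either strand, to 12 short words typical of factor binding sites, which are spelled out below.
Pgap2 (rise; chr7:102222821-102223120, plus strand): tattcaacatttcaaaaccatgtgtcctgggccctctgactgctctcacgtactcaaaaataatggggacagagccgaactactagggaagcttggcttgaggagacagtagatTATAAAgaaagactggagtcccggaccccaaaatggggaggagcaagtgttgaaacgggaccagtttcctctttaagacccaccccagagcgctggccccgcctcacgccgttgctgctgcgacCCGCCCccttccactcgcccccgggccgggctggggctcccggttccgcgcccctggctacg
Ncoa7 (rise; chr10:30655818-30656117, minus strand): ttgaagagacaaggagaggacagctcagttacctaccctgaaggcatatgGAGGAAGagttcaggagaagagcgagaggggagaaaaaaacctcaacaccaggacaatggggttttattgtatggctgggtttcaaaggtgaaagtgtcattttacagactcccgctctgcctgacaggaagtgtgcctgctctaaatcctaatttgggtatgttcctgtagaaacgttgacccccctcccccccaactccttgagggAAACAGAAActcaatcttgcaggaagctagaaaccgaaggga
Kcnab2 (fall; chr4:152448806-152449105, minus strand): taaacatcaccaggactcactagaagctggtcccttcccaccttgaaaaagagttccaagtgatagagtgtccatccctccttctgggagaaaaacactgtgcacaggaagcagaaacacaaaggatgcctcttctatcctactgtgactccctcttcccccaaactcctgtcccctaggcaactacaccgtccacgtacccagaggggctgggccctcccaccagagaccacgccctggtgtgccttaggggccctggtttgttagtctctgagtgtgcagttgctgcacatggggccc
Atp8b4 (fall; chr2:126491504-126491803, minus strand): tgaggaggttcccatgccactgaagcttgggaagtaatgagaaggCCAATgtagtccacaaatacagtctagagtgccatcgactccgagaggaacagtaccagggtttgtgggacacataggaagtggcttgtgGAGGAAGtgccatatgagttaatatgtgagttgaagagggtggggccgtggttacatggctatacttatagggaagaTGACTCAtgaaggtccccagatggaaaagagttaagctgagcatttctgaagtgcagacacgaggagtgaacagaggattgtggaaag
Kifap3 (highest rank; chr1:163779333-163779632, plus strand): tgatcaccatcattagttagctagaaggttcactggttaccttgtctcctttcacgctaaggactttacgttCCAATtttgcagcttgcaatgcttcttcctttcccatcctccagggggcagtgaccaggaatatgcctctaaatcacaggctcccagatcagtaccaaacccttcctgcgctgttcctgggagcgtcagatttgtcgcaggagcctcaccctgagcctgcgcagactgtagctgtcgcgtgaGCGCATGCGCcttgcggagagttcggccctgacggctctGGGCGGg
Clybl (highest rank; chr14:122181444-122181743, plus strand): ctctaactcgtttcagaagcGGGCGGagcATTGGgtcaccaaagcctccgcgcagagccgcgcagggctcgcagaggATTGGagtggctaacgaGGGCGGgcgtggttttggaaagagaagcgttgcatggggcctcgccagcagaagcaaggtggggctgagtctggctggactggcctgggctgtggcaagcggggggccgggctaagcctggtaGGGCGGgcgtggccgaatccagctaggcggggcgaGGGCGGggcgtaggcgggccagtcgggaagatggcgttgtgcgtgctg

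The words searched were ETS (CCGGAAG), PU.1 (GAGGAAG), AP-1 (TGANTCA), Sp/KLF (GGGCGG), E-box (CACGTG), CRE (TGACGTCA), NRF1 (GCGCNTGCG), C/EBP (TTGCNNAA), IRF (AAANNGAAA), NF-kB (GGGANTTCC), the NF-Y word CCAAT and the TATA box (TATAAA), each on both strands. The ETS and PU.1 words share their last 5 letters but cannot match the same bases. The window in Kifap3 carried 2 overlapping NRF1 matches, 1 Sp/KLF match and 1 CCAAT match, and that in Clybl 4 Sp/KLF and 2 CCAAT matches. The window in Ncoa7 held 1 IRF and 1 PU.1 match, and that in Atp8b4 held 1 PU.1, 1 AP-1 and 1 CCAAT match. None of the 12 words occurred in the Kcnab2 window. A match is a string of letters and not a shown binding site, and no match says only that these letters are not in the window.

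Start windows in always-open gene-body regions were rich in G, C and CpG. Over 1278 such windows the median GC content was 61.67% and the median number of CpG dinucleotides was 21. Over 4471 start windows inside gene bodies that held no peak in any library, these medians were 49.0% and 4. Windows of always-open regions at gene ends had 62.67% and 23 (n = 8854). The Sp/KLF word, a GC-box bound by ubiquitous activators, occurred in 61.5% of the windows in always-open gene-body regions, 15.8% of those without a peak, 71.3% of those in always-open regions at gene ends and 35.7% of all 32851 windows. The NRF1 word followed the same order, at 12.8%, 0.895%, 16.9% and 6.31%. So did the ETS word, at 14.7%, 2.33%, 22.2% and 8.86%. The TATA word was found in 5.48% of the windows in always-open gene-body regions and in 15.6% of those without a peak. The PU.1 word was found in 12.8% to 14.8% of each set. The words of other macrophage factors were less frequent in the windows of always-open gene-body regions than in those without a peak, at 6.18% against 8.68% for AP-1, 8.76% against 11.5% for C/EBP and 7.04% against 12.3% for IRF, while the NF-kB word was at 2.19% against 0.939%. Base composition differed between these sets, and its part in the shares was not tested.

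Of the 6 regions whose start windows are printed above, 4 were chosen for their shift between states and 2 for their high rank. Each region's value in a library was the highest fold enrichment of its peaks as the authors' peak caller gave it, ranked among all 22770 always-open regions of that library, so that 100 is the highest percentile and a difference between percentiles is given in points. The region in Pgap2, a gene of GPI-anchor maturation, had a median percentile of 14.9 (range 0.8 to 44.1) in the 12 unstimulated libraries and 51.7 (34.0 to 87.2) in the 12 stimulated ones. It rose by 37.7 points (limma, Benjamini-Hochberg adjusted p = 1.58e-05). The Ncoa7 region lay 93.7% of the way along the gene, where a short transcript starts. Ncoa7 is a nuclear receptor coactivator gene, and a short isoform from an internal start is known to be induced by interferon. This region had a median of 28.2 (2.1 to 38.8) without and 56.2 (33.8 to 83.9) with stimulation, a rise of 33.1 points (limma adjusted p = 0.000172). In both regions the ranges of the states overlapped. Kcnab2, which encodes a potassium channel beta subunit, held a region that fell without overlap, from a median of 60.4 (46.1 to 79.9) to 20.5 (9.2 to 38.8; limma adjusted p = 7.48e-07). The region in Atp8b4, a lipid flippase gene, went from 57.5 (23.9 to 82.2) to 12.5 (2.6 to 47.7; limma adjusted p = 2.11e-05). The Kifap3 and Clybl regions stayed between percentiles 99.6 and 100.0 and between 95.0 and 100.0 in all libraries.

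The 7805 regions lay in 4295 of 21887 protein-coding genes, and 2664 of these genes held 1 region, 1369 held 2 to 4, and 262 held 5 or more. The host genes were long, with a median of 57.35 kb against 17.17 kb for all protein-coding genes. The rule favours long genes, because only midpoints inside a body and more than 1 kb from any gene end count. The difference in length is therefore no separate finding. The median distance to the nearest gene end was 16.93 kb, and 64.0% of the regions were more than 10 kb from any gene end. Along the host gene, 13.4% of the 6265 regions with a known strand lay in the first 10% of its length and 6.75% in the last 10%. Without regions that overlapped a start window, the share in the first 10% was 9.16%, against 10.1% for gene-body regions found in 2 to 23 libraries. Exons and introns were not told apart here.

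**Figure D1:**
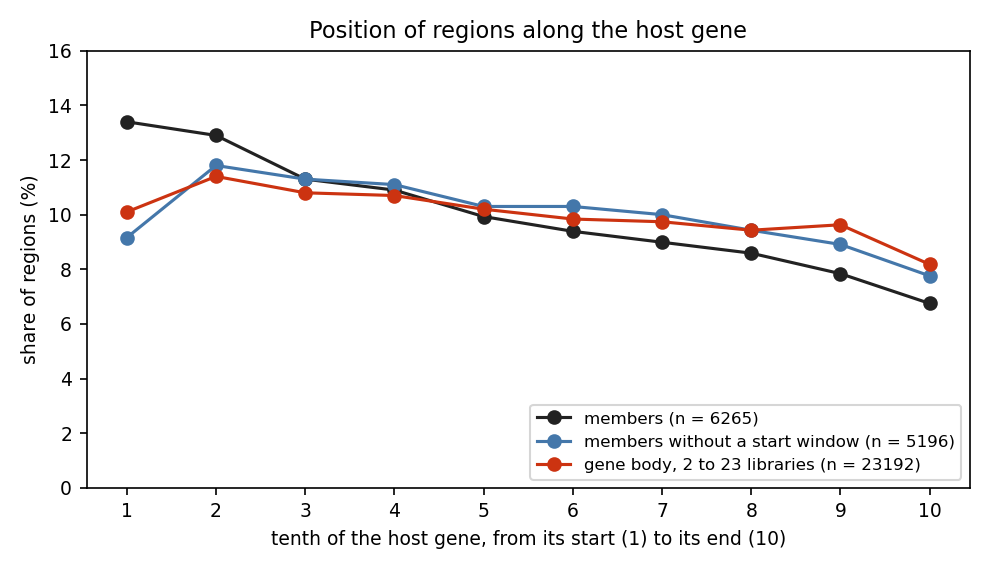
Share of regions in each 10% of the host gene's length, in percent, from its start to its end, for all always-open gene-body regions with a known strand ("members", black), those without a start window (blue) and gene-body regions found in 2 to 23 libraries (red). The black line begins at 13.4% and the others at 9.16% and 10.1%, and all 3 end between 6.75% and 8.18%.

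Always-open gene-body regions had a median width of 641 bp, against 934 bp for the 8489 always-open regions at gene ends, 614 bp for the 6476 between genes and 352 bp for the 29110 gene-body regions found in 2 to 23 libraries. A width spans all merged peaks of a region, so peaks from more libraries can widen it. The part of this in the contrast with the regions found in 2 to 23 libraries was not tested. In 5196 regions (66.6%) every library called exactly 1 peak. In these, the position of the summit varied between libraries with a median SD of 38.38 bp. The narrowest spreads were in Cldn34d (2.3 bp), Il1rapl1 (2.8 bp), Wdr59 (5.2 bp), Chl1 (5.6 bp) and Mical2 (6.6 bp). The widest were in Cntln (295.4 bp), Cetn3 (280.5 bp), Camk2d (271.2 bp), Prdm10 (237.1 bp) and Man1a (221.0 bp). Of these last 5, the regions in Cntln, Cetn3, Camk2d and Prdm10 overlapped a start window and none of the 5 narrow ones did.

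By fold over the local background the regions spanned almost the whole order. Their median percentile was 43.8, below that of always-open regions at gene ends (57.2) and close to that of regions between genes (46.4). Of the gene-body regions 2.14% had a median percentile of at least 95, against 4.72% at gene ends and 3.47% between genes. The highest were in Kifap3, which encodes a kinesin-associated protein, Clybl, a mitochondrial citramalyl-CoA lyase gene, Syt16, Adgb, Atg10, Plcb1, Mrps27, Stpg4, Htr7 and Ndfip2. Their median percentiles ran from 99.3 to 100.0, and the median fold of the Kifap3 region was 20.51. Syt16, Adgb and Htr7 encode a synaptotagmin, androglobin and a serotonin receptor. At the low end, regions in Sfi1, Ppp3ca, C9orf72, Glipr1 and Ctsz had median percentiles of 0.0 to 0.2, and the Sfi1 region, with a median fold of 2.667, was the lowest of the 7805. Ctsz encodes the lysosomal protease cathepsin Z, a gene of macrophages.

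The threshold of 24 libraries and the 1 kb margin cut through continuous ranges. The median fold of the 7805 regions was 8.695, against 6.698 for the 1866 gene-body regions found in 23 libraries. The 219 of them 1000 to 1250 bp from a gene end had a median percentile of 34.6, and the 268 regions 750 to 1000 bp away, just outside the margin, had 39.3.

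The cells' identity was checked with marker genes fixed by list. Regions lay in 7 of 24 genes of macrophage surface and lysosomal identity (13 regions), among them Csf1r, the receptor for the growth factor that macrophages need, whose introns are known for an enhancer. Its region (chr18:61107571-61109064) had a median percentile of 29.3 (19.1 to 67.9) without and 22.3 (5.0 to 52.2) with stimulation, and its shift of -10.3 points did not pass (limma adjusted p = 0.124). Of the markers of other cells, regions lay in 2 of 17 genes for neutrophils (2 regions), 3 of 20 for T and NK cells (3), 1 of 14 for B cells (2), 3 of 14 for erythroid and megakaryocytic cells (3), 4 of 14 for stromal and endothelial cells (6) and 1 of 10 for mast cells and basophils (1). In the dendritic cell list they lay in 4 of 12 genes (14 regions), with 8 in Tcf4 and 3 in Zbtb46. These counts did not set the macrophage list apart from the dendritic, stromal and endothelial lists. Whether other cells were present was not tested beyond these counts.

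Unstimulated libraries held 49837 to 61861 peaks and stimulated ones 41385 to 58016, and the median fold of the 7805 regions was 8.637 to 10.22 without and 6.817 to 9.654 with stimulation. Ranks within a library were therefore compared, and a change of rank is relative to the other always-open regions. The mean correlation of a library's ranks with its group was 0.816 to 0.842 in unstimulated libraries and 0.699 to 0.784 in stimulated ones. Control stimulated replicate 6 and diabetic stimulated replicate 5 were lowest, at 0.699 each. The part of peak number and of this agreement in the differences below was tested only by the alternatives named beside them.

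Stimulation, with both phenotypes pooled, moved the rank of 2787 of the 7805 regions (limma on normal scores of the ranks, adjusted p under 0.05 over all 22770 always-open regions). Of these, 1041 (13.3%) were higher and 1746 (22.4%) were lower after LPS and IFNγ. Over all always-open regions 14.7% were called higher and 15.7% lower. Falls made up 62.6% of the calls in gene-body regions and 51.6% of those in all always-open regions. That split moved with what a region was ranked against. When the 7805 regions were ranked only among themselves, 1315 were higher and 1407 lower. With the number of peaks in the library as a covariate, 781 were higher and 1152 lower. Shifts of at least 25 points were seen in 318 of the regions called higher and 595 of those called lower, and of at least 50 points in 26 and 23. No counts over all always-open regions were made for these shifts or under the alternatives given here and below.

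The calls were also counted by whether a region overlapped an annotated internal start. Of the 1092 with a start window, 165 (15.1%) were called higher and 81 (7.42%) lower, with a median shift of 2.78 points. Of the 6713 without, 876 (13%) were higher and 1665 (24.8%) lower, with a median shift of -2.94 points. Ranked only among the 7805 regions, those with a start window had 229 (21%) higher and 57 (5.22%) lower, and those without 1086 (16.2%) and 1350 (20.1%). With peak number as a covariate, 59 (5.4%) of those with a start window were higher and 61 (5.59%) lower, and of those without 722 (10.8%) and 1091 (16.3%). Regions at gene ends, most of which hold a start window, had 15.6% higher and 5.41% lower, and regions between genes 15.2% higher and 21% lower. Per library, the median percentile of gene-body regions without a start window ran from 43.4 to 47.7 (median 46.1) in the 12 unstimulated libraries and from 35.7 to 47.2 (median 41.45) in the 12 stimulated ones. That of gene-body regions with a start window ran from 41.9 to 48.8 (median 44.45) and from 41.8 to 56.7 (median 48.85). The ranges overlapped in both classes, and these per-library values were not tested. Ranks within a library are shared out among the classes, so a gain in any class comes with a loss elsewhere.

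**Figure D2:**
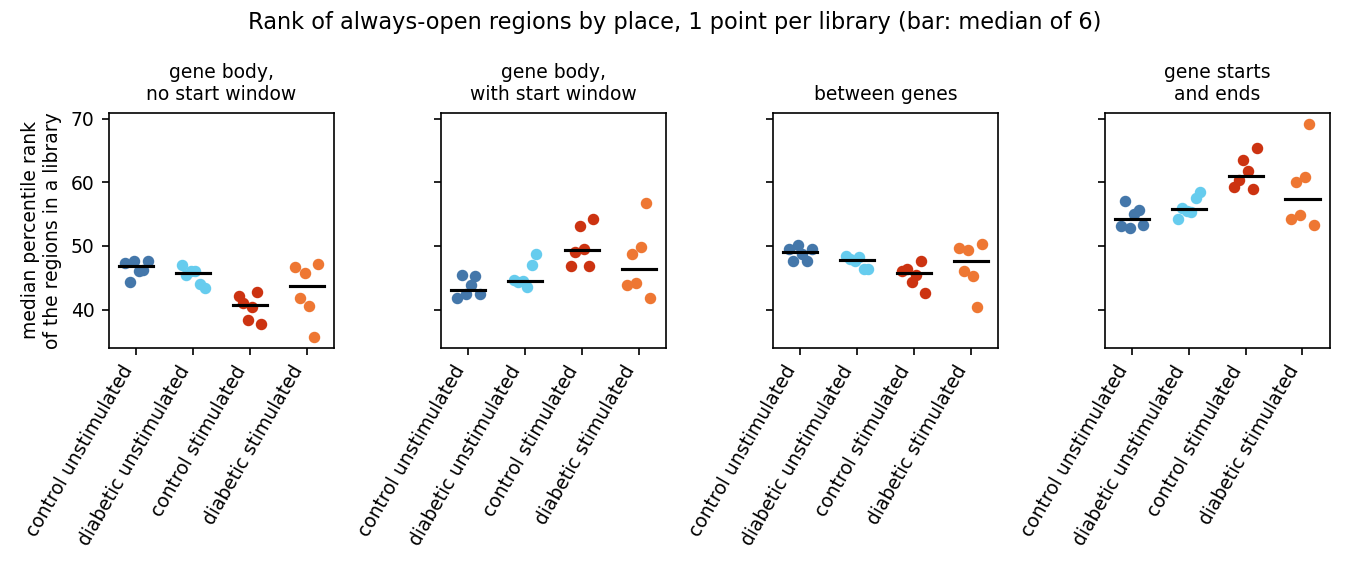
Median percentile rank of 4 classes of always-open regions in each library (1 point per library, 6 per group, bar at the group's median; the axis starts above 0). Gene-body regions without a start window spanned 35.7 to 47.2 in stimulated libraries, while regions at gene starts and ends spanned 53.3 to 69.2.

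The 10 leading rises included genes of signalling, transport and vesicle traffic. The largest was a 633 bp region in Rapgef5 (chr12:117566191-117566823), which encodes an exchange factor for Rap GTPases. Its median percentile was 8.4 (range 2.8 to 29.7) in the unstimulated libraries and 90.6 (68.6 to 95.3) in the stimulated ones. Its mean went from 11.2 ± 8.3 to 86.1 ± 9.3 (SD, n = 12 each), a rise of 74.9 points (limma adjusted p = 2.78e-11). No stimulated library reached down to an unstimulated one, and the rise was 74.6 points in control and 75.1 points in diabetic cells. As a fold over the local background, the median of this region was 6.116 without and 11.83 with stimulation.

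In Tnfrsf8, which encodes the TNF receptor family member CD30, a region at chr4:145283266-145284059 went from a median of 23.3 (6.9 to 43.2) to 90.4 (60.2 to 96.1), a rise of 62.8 points (limma adjusted p = 1.31e-09) without overlap. In Rab27a, a GTPase of secretory granule docking, the median went from 8.8 (3.3 to 41.0) to 77.8 (34.1 to 98.3; limma adjusted p = 1.23e-08). In Abcb1a, a drug efflux pump, it went from 6.3 (1.1 to 62.2) to 85.0 (12.3 to 90.1; limma adjusted p = 1.55e-07). The ranges of Rab27a and Abcb1a overlapped through 1 or a few libraries that stood apart from their group. The other leading rises were in Tmc3, a transmembrane channel-like gene (68.3 points), Pcdh7, a protocadherin gene (64.6 points), Cep85l, a centrosomal protein gene (62.1 points), Trmt11, a tRNA methyltransferase subunit gene (60.5 points), Cpq, a carboxypeptidase gene (60.5 points), and Pdzd2 (60.5 points). Their limma adjusted p-values ran from 2.28e-09 to 6e-07, and none of the 10 overlapped an annotated start window.

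Among the 10 leading falls, the largest was in Vps13b (chr15:35559058-35559512), which encodes a lipid transfer protein of the Golgi apparatus. Its median percentile was 86.1 (55.9 to 98.4) without and 17.7 (0.9 to 57.1) with stimulation, and its mean fell from 83.4 ± 13.5 to 20.3 ± 17.1 (SD, n = 12 each; limma adjusted p = 5.89e-08). The ranges touched at their ends only. In Gas2, whose product binds actin and microtubules, the median went from 76.0 (59.9 to 90.4) to 17.6 (1.2 to 30.8; limma adjusted p = 4.8e-09). In Shld1, a subunit of the shieldin complex of DNA repair, it went from 95.4 (85.3 to 98.3) to 44.3 (4.4 to 68.7; limma adjusted p = 7.77e-09). Neither the Gas2 nor the Shld1 ranges overlapped. The remaining leading falls were in Ank2, an ankyrin gene (-57.8 points), Shisa9 (-57.4), Rnf128, an E3 ubiquitin ligase gene (-55.3), Ttyh3 (-55.1), Serpinb1c, a serine protease inhibitor gene (-54.0), Rnf150 (-53.2) and Rassf4 (-52.7). Serpinb1c has close paralogs, and reads of near-identical copies may be shared between them. All of these falls had limma adjusted p-values of 3.38e-07 or less.

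**Figure D3:**
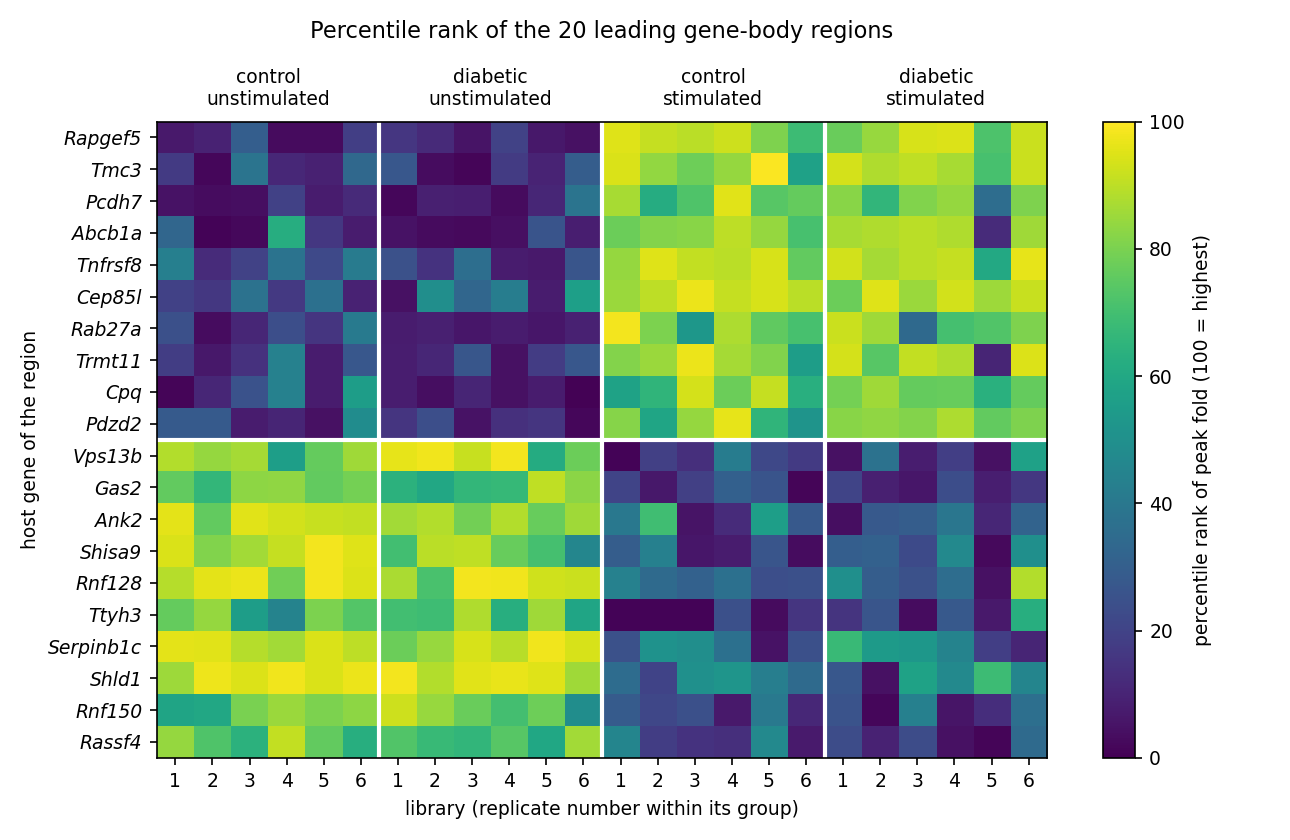
Percentile rank (colour, 0 to 100) of the 10 leading rises (top) and 10 leading falls (bottom) in each of the 24 libraries, ordered by group, with the host gene at the left. The Rapgef5 row lies at 2.8 to 29.7 in unstimulated and 68.6 to 95.3 in stimulated libraries, and diabetic stimulated replicate 5 is low for Abcb1a (12.3) and Trmt11 (10.4).

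In control cells alone 607 regions (7.78%) were higher and 1156 (14.8%) lower after stimulation, against 9.52% and 10.2% of all always-open regions. With peak number as a covariate these counts were 316 and 433. In diabetic cells alone 464 (5.94%) were higher and 631 (8.08%) lower, against 4.77% and 5.51% of all. The covariate gave 486 and 603, each above its count in control cells, whereas without it each was below. The order of falls over rises in diabetic cells turned without diabetic stimulated replicate 5 (500 higher, 490 lower) and with ranks among the 7805 only (545 and 540). Without both stimulated libraries that agreed least with their group, the counts were 522 and 523. The largest rises in control cells were in Rapgef5, Pcdh7 (69.4 points) and Cep85l (68.4 points), and the largest falls in Shisa9 (-71.6 points), Ttyh3 (-61.4 points) and Alox5 (-60.8 points; limma adjusted p = 3.77e-05). Alox5 encodes 5-lipoxygenase, which begins leukotriene synthesis. Its region had medians of 82.6 (69.6 to 86.4) in control unstimulated, 16.5 (1.4 to 39.3) in control stimulated, 75.4 (66.9 to 85.3) in diabetic unstimulated and 50.0 (5.1 to 57.7) in diabetic stimulated libraries. In diabetic cells the largest rises were in Rapgef5, Tmc3 (72.2 points) and Cpq (70.5 points), and the largest falls in Vps13b (-65.5 points), Ank2 (-60.2 points) and Memo1, a gene of cell migration (-58.3 points; limma adjusted p = 1.12e-05).

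The responses of both phenotypes, which share no library, had the same sign in 5965 of the 7805 regions (76.4%), with a correlation across regions of 0.7555 (regions are not independent replicates). Of regions called higher, 272 were called in both, which is 44.8% of the control list and 58.6% of the diabetic list. Of regions called lower, 435 were called in both, 37.6% of the control and 68.9% of the diabetic list. No region was called in opposite directions. These measures of agreement were not taken over all always-open regions, so they are not shown to be particular to gene-body regions.

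**Figure D4:**
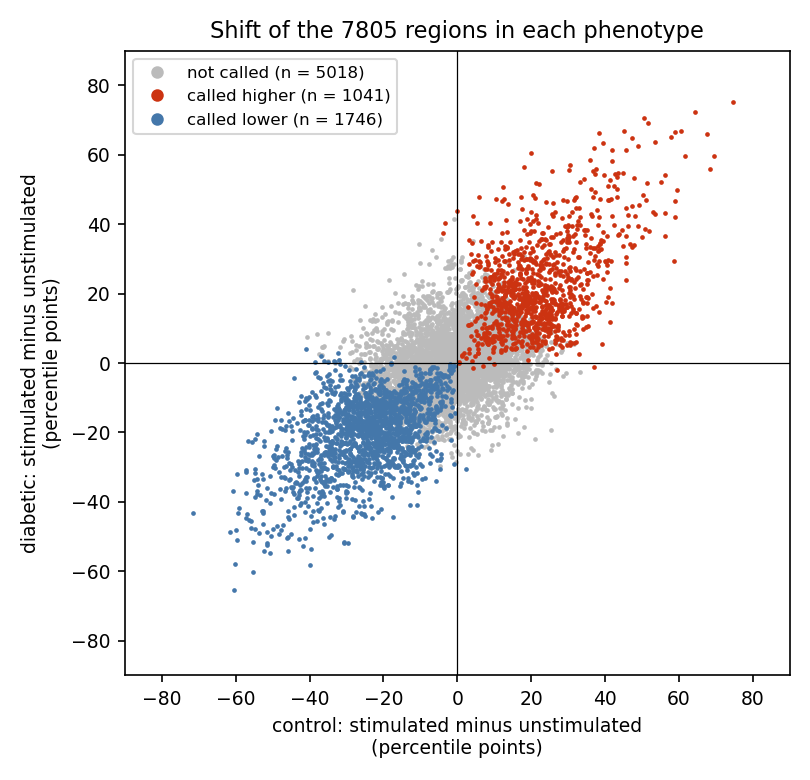
Mean shift of percentile rank after stimulation, in points, in control (x axis) and diabetic cells (y axis) for each of the 7805 regions, coloured by the call with phenotypes pooled (1041 higher, 1746 lower). The points lie along the diagonal, with 76.4% of them at the same sign on both axes.

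No always-open gene-body region was called between diabetic and control cells. At rest, 0 regions were called higher and 0 lower, and over all always-open regions 0.0% were called in each direction (limma). Unadjusted p-values under 0.05 were reached by 131 higher and 267 lower regions (1.68% and 3.42%), against 2.0% and 2.65% of all always-open regions. The smallest adjusted p was 0.372. The regions with the smallest p were in Sgce, a sarcoglycan gene, and Zcchc24, a zinc finger gene. The Sgce region had percentiles of 15 to 35.5 (median 23.3) in control and 2.6 to 11.7 (median 4.6) in diabetic unstimulated libraries, which did not overlap (limma unadjusted p = 4.95e-05). The Zcchc24 region had 34.6 to 52.9 (median 42.1) and 4.0 to 30.9 (median 10.4; limma unadjusted p = 8.33e-05).

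After stimulation 0 regions were called higher and 0 lower in diabetic cells, with 0.0% of all always-open regions in each direction (limma), and 489 higher and 304 lower (6.27% and 3.89%) reached an unadjusted p under 0.05, against 4.73% and 4.53% of all always-open regions. The lowest adjusted p, 0.0923, belonged to a region in Nceh1, a cholesterol ester hydrolase gene. It lay at 6.6 to 53.3 (median 23.7) in control and 59.3 to 87.2 (median 70.4) in diabetic stimulated libraries, again without overlap, and limma did not call it. It was called without control stimulated replicate 2 (limma adjusted p = 0.0436) or replicate 4 (limma adjusted p = 0.0203). The region in Trak1, a mitochondrial transport adaptor gene, lay at 30.1 to 65.3 in control and 1.3 to 16.9 in diabetic stimulated libraries (limma adjusted p = 0.103). For the difference between the responses of both phenotypes 0 regions were called in either direction, with 0.0% of all always-open regions in each (limma), and 389 and 168 (4.98% and 2.15%) reached an unadjusted p under 0.05, against 3.54% and 3.16% of all. The smallest adjusted p was 0.663. Regions in Phc2, a Polycomb subunit gene, and Cadm1, a cell adhesion gene, had the smallest p (limma unadjusted p = 5.65e-05 and 0.000245). An adjusted p that misses the threshold does not show that the phenotypes are alike. The regions named for these comparisons were picked for the smallest p, so a lack of overlap in them is no separate support.

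Regions in genes of macrophage function were counted by 12 lists, which held 307 regions. Over all 22770 always-open regions, stimulation with phenotypes pooled called 14.7% higher and 15.7% lower, and the lists were not tested against these shares. The median shift was 0.5455 points over all always-open regions and -1.853 points over the 7805 gene-body regions. In every list more regions were called lower than higher, as among all 7805 regions, for which the shares were 22.4% and 13.3%. This order turned for cytokine genes with ranks of the −log10 p-value (3 higher, 1 lower; NF-kB genes had 3 of each), for glycolysis genes with ranks among the 7805 only (6 and 4), and for glycolysis (4 and 3) and cell cycle genes (1 and 0) with peak number as a covariate.

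Lineage transcription factors held 50 regions, of which 4 rose and 10 fell. Ikzf1, which encodes Ikaros, held a region that fell from a median of 80.1 (58.7 to 89.7) to 28.6 (4.9 to 47.7; limma adjusted p = 5.75e-08), with no overlap. Zeb2, a repressor that maintains macrophage identity, held the largest rise (34.7 points) and also a fall of 21.2 points. Mef2c held 8 regions, the most in the list, and 1 of them fell. The AP-1, BATF and MAF list held 23 regions, of which 2 rose and 6 fell. Bach2, a repressor of the same DNA sites as AP-1, carried both extremes. The region at chr4:32267927-32268480 rose by 31.6 points (limma adjusted p = 0.00104), and that at chr4:32352561-32353278 fell from a median of 59.6 (38.0 to 85.3) to 7.1 (0.7 to 36.8; limma adjusted p = 4.78e-08). Of 50 regions in chromatin modifier genes 3 rose and 11 fell, led by Tet2, a DNA demethylase gene (42.2 points), and Hdac5, a histone deacetylase gene (-47.1 points); Arid1b held the most, 11.

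Several lists held genes that sense and pass on the stimulus. Of 17 regions in Toll-like receptor signalling genes 2 rose and 5 fell. Tlr4, the LPS receptor, held a region that fell by 32.3 points (limma adjusted p = 0.000366), and Irak2, a kinase of the same pathway with 4 regions, a region that rose by 17.9 points (limma adjusted p = 0.00046). Of 23 regions in interferon signalling and response genes 2 rose and 7 fell, with a median shift of -10.7 points. Jak1, a kinase of the IFNγ receptor, held a region that fell from a median of 83.9 (66.5 to 96.8) to 44.9 (13.9 to 56.8; limma adjusted p = 6.6e-07) without overlap, and another that rose by 30.8 points. Parp14, an interferon-induced ADP-ribosyltransferase gene, held the largest rise, from a median of 20.3 (4.4 to 49.1) to 75.1 (37.7 to 86.7; limma adjusted p = 4.28e-07). Irf2 held 5 regions, 1 of which fell (-23.4 points). Of 19 regions in NF-kB factor and inhibitor genes 1 rose, in Nfkb2 (13.2 points), and 3 fell, the most in Bcl3 (-23.2 points); both of these overlapped a start window. The Bcl3 call was lost with ranks of the −log10 p-value (limma adjusted p = 0.0901). Tnip1, an inhibitor gene, and Nfkb1 held 3 regions each.

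Cytokine and chemokine genes held 9 regions, of which 1 rose, in Il18 (17.6 points; limma adjusted p = 0.0313), and 4 fell. Il15 held 3, and its region at chr8:82374443-82374939 fell from a median of 50.9 (31.3 to 73.1) to 5.5 (0.5 to 33.6; limma adjusted p = 1.05e-07). The Il18 ranges overlapped widely, and its call was lost (limma adjusted p = 0.0515 to 0.0683) without control unstimulated replicate 3 or 5, control stimulated replicate 2 or 6, diabetic unstimulated replicate 2, or diabetic stimulated replicate 1 or 3. Of 12 regions in alternative activation genes 1 rose, in the scavenger receptor gene Msr1 (17.7 points; limma adjusted p = 0.0241, 0.0512 without control unstimulated replicate 6 and 0.0835 with peak number as a covariate), and 4 fell, led by Tgfbr2 (-35.3 points). Another region in Msr1 was among these falls (-15.9 points, limma adjusted p = 0.0391). Of 35 in lipid handling genes 3 rose and 12 fell. Cpt1a, which admits fatty acids to mitochondria, held the largest rise (32.1 points), and Srebf2, which drives cholesterol synthesis, the largest fall (-30.5 points; limma adjusted p = 0.00189, and 0.124 with peak number as a covariate). Of the 5 regions in the fatty acid receptor gene Cd36 1 rose (25.5 points) and 1 fell (-11.9 points).

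Of 39 regions in insulin and PI3K signalling genes 4 rose and 11 fell, with Pik3ca, the catalytic PI3K subunit gene, at the top (54.7 points; limma adjusted p = 2.12e-07) and the adaptor gene Gab2 at the bottom (-31.1 points, not called with peak number as a covariate, limma adjusted p = 0.0532). Pik3cb held 4. Glucose uptake and glycolysis genes held 26, of which 5 rose (19.2%) and 7 fell (26.9%). The hexokinase gene Hk2 held the largest rise (36.6 points, limma adjusted p = 1.65e-05) and Gpi1 the largest fall (-41.3 points, limma adjusted p = 1.76e-05). Another region in Hk2 was called lower (-15.0 points, limma adjusted p = 0.0196). Cell cycle genes held 11, of which 0 rose and 2 fell, the more in Rb1 (-21.2 points, not called with peak number as a covariate, limma adjusted p = 0.176); Cdk6 held 3.

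**Figure D5:**
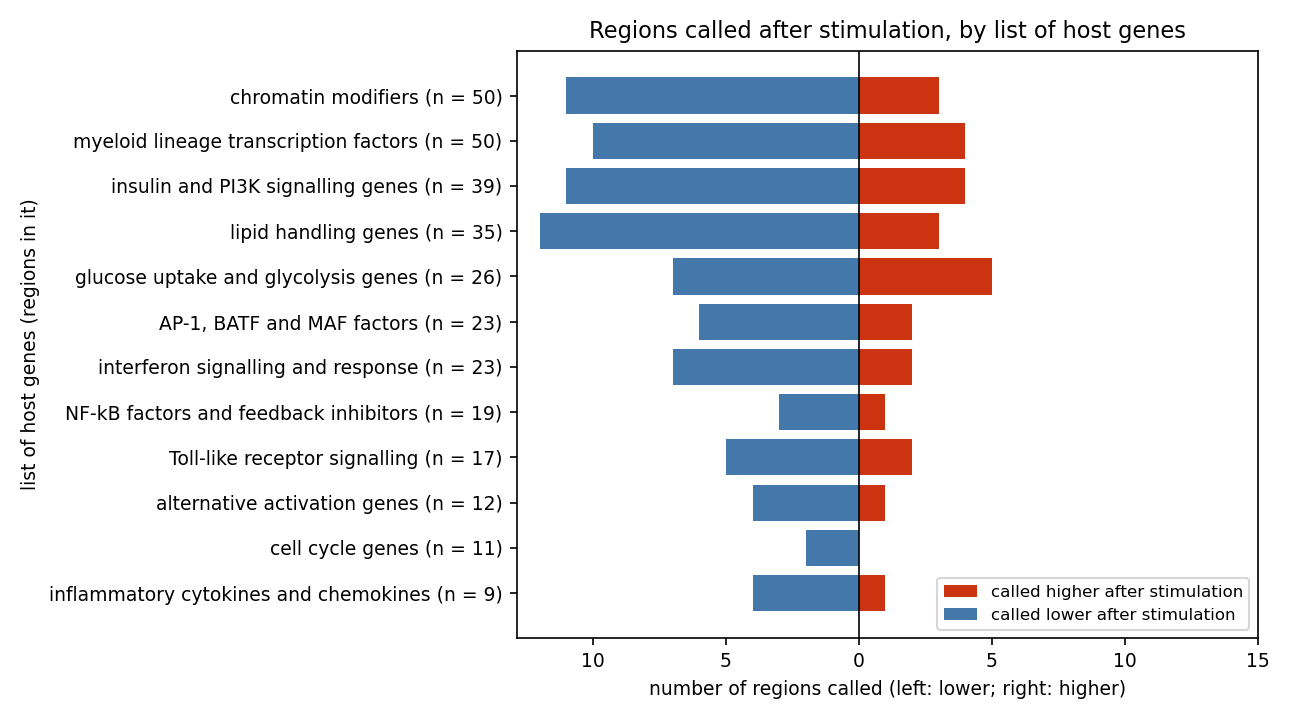
Number of always-open gene-body regions called higher (red, right) and lower (blue, left) after stimulation in each of 12 lists of host genes, with the number of regions in each list. The bars of the chromatin modifier list reach 11 lower and 3 higher of 50.

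Genes with several regions were described by the calls in each. Of the 262 genes with 5 or more regions, 111 had calls in both directions, 90 only falls, 37 only rises and 24 none; over all 7805 regions 13.3% were called higher and 22.4% lower. Pde4d, a cAMP phosphodiesterase gene of 1301.8 kb, held the most with 16 regions, of which 3 rose and 3 fell, with shifts from -46.0 to 20.8 points. It was followed by Elmo1, whose product acts with Dock proteins in phagocytosis, with 13 regions, of which 2 rose and 7 fell, and by Arhgap24, Bach2, Camk2d and Zfhx3 with 12 each, then App, Arid1b, Magi2 and Sgms1 with 11 each. Each of these 10 genes had at least 1 call in each direction. Per length, the densest among genes with at least 5 regions was Itgb2, the gene of the integrin beta chain of leukocytes, with 5 regions in 35.4 kb, or 14.13 per 100 kb. Its region at chr10:77550797-77551457 had a median percentile of 95.6, and the other 4 had 9.4 to 24.6. None of the 5 was called, and their shifts ran from -9.9 to 5.0 points. Tspan14, Rcsd1, Pfkfb4, Adcy7, Klf13, Plekha1, Tmigd3, Tfeb and Emilin2 came next, with 8.42 to 11.54 per 100 kb, and Tfeb, a regulator of lysosomal genes, had 3 falls among 5 regions.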

How the data were processed

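The authors deposited 1 peak list per library (24 lists, 41385 to 61861 peaks), each called separately. The submitters' processing notes name MACS2 2.1.1, Bowtie2 2.2.6, DiffBind 2.4.8, FastQC 0.11.3, edgeR and mm10, without stating roles or any shift of reads for Tn5. Each deposited peak has a fold over its local background, −log10 p- and q-values and a score, which was not used. Read depth is unknown, so no counting interval is given.

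Peaks were merged at 1 bp of overlap and placed by RefSeq genes of GRCm38.p6. A region's highest fold was ranked within each library over the 22770 regions found in all 24. Equal folds within a library shared their average rank, so several regions can hold the same percentile. Normal scores of the ranks were fitted with limma 3.58.1 (R 4.3.3) as 4 group means without a block, with Benjamini-Hochberg adjustment over all 22770. Python 3.11.15 made the tables. The fit was also run on simulated data with independent noise and changes set in few regions, unlike these data. The outcome is not given here and is not used as support. No label ties libraries to separate mice, so p-values measure the spread between these samples. Alternatives were other scalings, thresholds, overlaps and margins, a peak-number covariate, a replicate block, an exact rank test and leaving out each library.

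The regions, lists and tests were chosen with earlier results of these data known. Named were the 10 largest called rises and falls with phenotypes pooled, the 3 largest in each phenotype, the 2 smallest p-values where none was called, the 10 highest and 5 lowest ranks, the 5 widest and narrowest summit spreads, the 10 genes with the most regions and the 10 densest among those with at least 5, and the extremes and fullest gene of each list, passing over clone names. Csf1r, the printed start windows, miRNA hosts, Zbtb46, Ccr9, Flt3 and second regions of list genes were named after their values were seen. Results of 1 further list of genes are not reported here.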

Additional observations from a re-analysis of the deposited data

Results flagged for a closer look

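Values that stood apart within a group of 6 libraries are listed here; of 100 groups of values checked, chance flags about 1 in 20. The mean correlation of ranks with the other libraries of the group was 0.699 in control stimulated replicate 6 (others 0.746 to 0.767) and 0.699 in diabetic stimulated replicate 5 (others 0.757 to 0.784). In diabetic stimulated replicate 5 the percentile was also low for the regions in Abcb1a (12.3, others 85.9 to 89.5), Trmt11 (10.4, others 74.2 to 94.7), Pcdh7 (35.6, others 65.9 to 84.0), Tnfrsf8 (60.2, others 86.7 to 96.1) and Tmc3 (71.0, others 87.0 to 93.7). The Rab27a region was at 34.1 in diabetic stimulated replicate 3 (others 70.7 to 92.0). In diabetic unstimulated libraries the Pcdh7 region was at 38.5 in replicate 6 (others 1.7 to 10.8) and the Abcb1a region at 25.8 in replicate 5 (others 2.5 to 8.4). Among control unstimulated libraries, low values were seen for Vps13b in replicate 4 (55.9, others 76.5 to 88.3), Ank2 in replicate 2 (76.0, others 90.8 to 95.8) and Shld1 in replicate 1 (85.3, others 94.3 to 97.9).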

How the results depend on the processing

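The number of regions was 5053 with peaks of −log10 q of at least 5 and 5196 with 1 peak in every library. At −log10 q of at least 5, fewer regions were tested, and stimulation called 615 higher and 1080 lower with phenotypes pooled, 351 and 707 in control and 243 and 333 in diabetic cells. With peak number as a covariate it called 1152 lower with phenotypes pooled, and 316 higher and 433 lower in control cells. In diabetic cells it then called 486 higher and 603 lower, and the cause of these differences was not tested. An exact Wilcoxon rank-sum test per region called 327 higher and 590 lower in control and 219 and 258 in diabetic cells. Leaving out each library in turn gave 963 to 1042 higher and 1640 to 1781 lower with phenotypes pooled, 518 to 646 and 960 to 1239 in control and 402 to 500 and 490 to 666 in diabetic cells. For diabetic against control it gave 0 at rest and for the interaction, and after stimulation 0 to 2 higher (2 without control stimulated replicate 2, 1 without replicate 4) and 0 lower. Without the 2 stimulated libraries that agreed least with their group, an alternative added after seeing the data, 1 was higher there.

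Deviations of same-numbered libraries from their group's mean correlated at -0.0547 to 0.0605 between the states within a phenotype. In diabetic cells, unstimulated replicates 1, 3 and 5 correlated best with their own number, and no control replicate did. These weak correlations do not settle whether the numbers mark the same mouse. With a replicate block, 1001 were higher and 1746 lower with phenotypes pooled, 582 and 1139 in control and 460 and 589 in diabetic cells. Of 2012 values of 61 named results under the alternatives, 1997 kept their direction and side of the threshold, 13 lost the call, 2 (Nceh1) gained it and 0 reversed. The losses are given beside the values. Many of the named results were chosen as the largest called shifts, and many alternatives left out only 1 library. Most values were therefore likely to hold, and the margin of 5 kb could not change them. With peak number as a covariate, 67.7% of all gene-body regions called higher and 62.4% of those called lower stayed called.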

Other observations

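Of the 7805 regions, 7 overlapped a RefSeq miRNA hairpin. The region in Btg4 that holds the hairpins of Mir34b and Mir34c, which are known as p53 targets, was called higher after stimulation (14.5 points; limma adjusted p = 0.0417). So was that in Clcn4 with Mir5620 (14.4 points; limma adjusted p = 0.00305). The region in Pid1 with Mir6353 was called lower (-20.8 points; limma adjusted p = 0.0051), as was that in Fndc3b with Mir3092 (-11.3 points; limma adjusted p = 0.0309). Those with Mir8104, Mir7655 and Mir5619 were not called. Of 14 regions in marker genes of dendritic cells, 3 (21.4%) were called higher, 2 (14.3%) lower and 9 in neither direction. Over all always-open regions 14.7% were called higher and 15.7% lower. A region in Zbtb46, a dendritic cell transcription factor gene, had the largest shift (55.7 points; limma adjusted p = 4.59e-08), and the other regions in this gene were not called (5.3 and 7.4 points). Both falls were in Ccr9 (-23.1 points) and Flt3 (-18.8 points). These regions were named after their values were seen.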
